A study of Ovis aries with 10 samples.

Results

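Intronic circular RNAs were examined in muscle of small-tailed Han sheep, as the circular RNAs (circRNAs) whose every block carries an intron label in the deposited annotation. There were 547 of them among the 8721 circRNAs listed in the 10 libraries, with 15985 of 445393 junction reads. A junction read crosses the point where the end of a circRNA is joined to its start. The 10 libraries were 5 from ovariectomized sheep (OR-STH) and 5 from sham-operated sheep (STH), and the study asks how estrogen acts on female muscle. The strain is shared by both groups, and the labels give no age. The tissue is labelled longissimus dorsi, which runs along the back, and the cell type primary myoblasts, so that the use of whole muscle or of cultured cells is not settled. Estradiol is named in the culture protocol, without a dose for any library. Separate animals are not stated, and the p-values given here cover the spread between libraries, which may be technical.

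Most circRNAs form when the spliceosome joins the end of an exon to the start of the same or an earlier exon, which is called back-splicing. A second route starts from an intron. The lariat released by splicing can escape debranching and keep a circular stretch of intron, and such circles were described in human cells as nuclear RNAs that can act on their host gene. A circle can also hold exons that are absent from the gene models, and an annotation then places it inside an intron. An intron label is therefore taken here as the annotation of a circle, and it does not say how the circle formed.

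Most of the intronic circRNAs were annotated as several blocks separated by gaps. Of the 547, 355 (64.9%) were built of 2 or more separate blocks, against 77.8% of the 7926 exonic circRNAs. There were 192 intronic circRNAs of 1 block, 200 of 2, 116 of 3, 31 of 4 and 8 of 5 or more. The 1107 intronic blocks had a median length of 118.0 bases, with quartiles of 87.0 and 156.0, and the exonic blocks a median of 116.0 bases, with quartiles of 88.0 and 150.0. The summed block length, called the spliced length, had a median of 277.0 bases in intronic and 293.0 bases in exonic circRNAs. The genomic span between the ends of the junction had a median of 6394 bases in intronic and 7687.5 bases in exonic circRNAs. These lengths are annotation of the circles and were not tested.

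**Figure D1:**
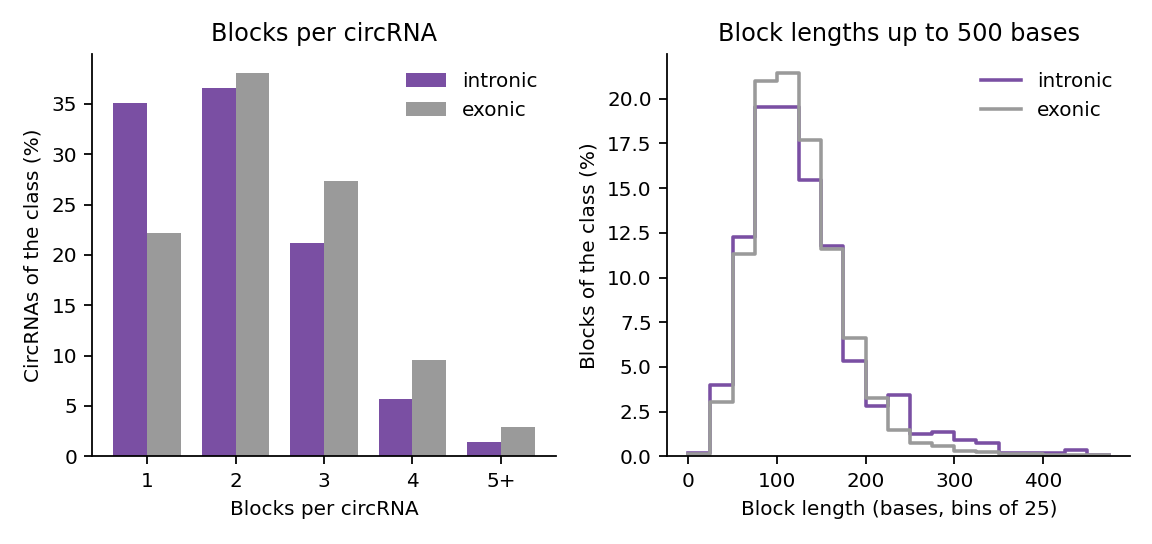
Left, percent of the circRNAs of each class (y axis) by the number of blocks per circRNA (x axis). Right, percent of the blocks of each class (y axis) by block length in bins of 25 bases (x axis), with purple for intronic and grey for exonic circRNAs. Both classes peak near the same block length, with medians of 118.0 and 116.0 bases, and 64.9% of intronic and 77.8% of exonic circRNAs have 2 or more blocks.

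The label was the same over a whole circle, and the same block could carry an intron label in an intronic and an exon label in an exonic circRNA. Which label matches the gene models was not tested. No circRNA of the 8721 carried more than 1 kind of block label. Yet 203 of the 547 intronic circRNAs (37.1%) held at least 1 block with exactly the coordinates and strand of a block labelled exon in an exonic circRNA, and in 62 every block did. An end of the junction was shared with an exonic circRNA in 199 (36.4%), 100 at the lower and 99 at the higher coordinate, and in none at both. In 310 neither an end nor a block was shared.

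Circles annotated as a continuous stretch of intron were few, though a larger share than single blocks over the whole span among exonic circRNAs. In 36 intronic circRNAs (6.58%) a single block filled the whole span, with lengths of 162 to 879 bases and a median of 333.0 bases. This form was seen in 208 exonic circRNAs (2.62%) and in 253 of all circRNAs (2.9%). The 36 held 722 junction reads, 4.52% of the intronic reads, and 24 of them were listed in a single library. An end or a block was shared with an exonic circRNA in 1 of the 36. A second set of 314 had 2 or more blocks that reached both ends of the junction, with 13066 reads (81.7%), and an end was shared in 109 of them. In the other 197 the blocks reached only 1 end of the junction, so their spliced length, with a median of 137.0 bases, is that of a part of the circle. Blocks reached both ends in 64.0% of intronic and 69.7% of exonic circRNAs.

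The 547 circRNAs lay in 424 first-named host genes, of which 413 are annotated as protein-coding and 6 as long noncoding RNA genes, and 5 were not found in the gene table. An exonic circRNA was listed for 298 of these hosts and none for the other 126. A single intronic circRNA was listed for 339 hosts, 2 for 61 and 3 or more for 24. Circles of the same host often overlapped, so that the 547 fell into 451 separate stretches of the same strand. Chromosome 1 held 67 intronic circRNAs (6.65% of all its circRNAs), chromosome 3 held 49 (5.63%) and chromosome 2 held 46 (4.61%).

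Reads were concentrated in a few circles. The 10 circRNAs with the most reads held 6326 reads (39.6%), and 184 of the 547 had 2 to 4 reads in all 10 libraries together. The leading circle was novel_circ_0011893 of ZEB1, which encodes a zinc finger repressor of epithelial genes. It lies on chromosome 13 from 33288522 to 33302091 on the minus strand, and its 3 blocks of 141, 133 and 157 bases share neither an end nor a block with an exonic circRNA. It had 164, 300, 247, 296 and 447 junction reads in OR-STH replicates 1 to 5 and 208, 314, 211, 269 and 413 in STH replicates 1 to 5. With 2869 reads it held 17.9% of all intronic reads, and the ranges of the groups overlapped. After scaling it had 254 ± 50.9 normalized junction reads in OR-STH and 312 ± 81.3 in STH libraries (SD, n = 5 each).

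The other circles of ZEB1 reused the same blocks. The 141-base block was in 4 of its 4 intronic circRNAs and the 157-base block in 3 of 4. The second circle, novel_circ_0011888 (33208486 to 33302091), had the longest span of all intronic circRNAs, 93606 bases. Its block of 201 bases is labelled exon in circRNAs of ZEB1 that have their higher coordinate there. It had 28, 23, 44, 49 and 192 junction reads in OR-STH replicates 1 to 5 and 27, 42, 31, 65 and 50 in STH replicates 1 to 5. OR-STH replicate 5 was far above the other libraries. All 4 intronic circRNAs of ZEB1 together had 3442 reads, against 187 for its 4 exonic ones.

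JMJD1C, a gene of the jumonji histone demethylase family, also gave a family of overlapping circles, on chromosome 25. Its 4 intronic circRNAs all had the lower coordinate 18755657 and differed in the higher coordinate. The largest, novel_circ_0016412 (to 18784510, minus strand, 5 blocks), had 29, 43, 28, 47 and 72 junction reads in OR-STH and 26, 35, 46, 42 and 61 in STH replicates 1 to 5. The next, novel_circ_0016411 (to 18783210, 4 blocks), had 28, 3, 14, 16 and 44 in OR-STH and 18, 14, 27, 8 and 38 in STH replicates. The third, novel_circ_0016410 (to 18777230), had 4, 17, 2, 14 and 21 in OR-STH and 6, 10, 2, 5 and 3 in STH replicates and was below the filter of the fit (two-sided exact permutation p = 0.294). The groups overlapped for all 3. JMJD1C had 736 intronic reads and 5 exonic ones.

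MTFR1, which encodes a regulator of mitochondrial fission, gave novel_circ_0009689 (chromosome 9, 43029564 to 43040538, plus strand). Each of its 4 blocks is also labelled exon in an exonic circRNA. It had 72, 45, 41, 52 and 70 junction reads in OR-STH and 33, 52, 39, 24 and 55 in STH replicates 1 to 5, with overlapping ranges. LOC106990930, annotated as a long noncoding RNA gene, gave novel_circ_0003707 (chromosome 2, 42266751 to 42269775), whose 3 blocks are likewise labelled exon elsewhere. It had 46, 74, 34, 34 and 35 junction reads in OR-STH and 48, 38, 68, 40 and 33 in STH replicates. MCU, which encodes the pore of the mitochondrial calcium uniporter, gave novel_circ_0016489 (chromosome 25, 27978018 to 27980678) with 22, 58, 42, 0 and 85 reads in OR-STH and 15, 21, 19, 27 and 53 in STH replicates, where 0 stands for a library with no entry. OR-STH replicate 4 was the only library without it, and the log2 fold change was -0.75 ± 1.29 (SE) with that library and 0.68 without it. The negative estimate stood against a higher mean in OR-STH, of 35.8 ± 24.2 normalized reads, than the 29.1 ± 13.99 in STH libraries (SD, n = 5 each).

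Among the 10 with the most reads were also circRNAs of CUL1, the scaffold of a family of ubiquitin ligases, of ZCCHC24 and of LOC101123244. The CUL1 circle novel_circ_0005853 (chromosome 4, 113087449 to 113101035) was steady, with 16 to 38 reads in OR-STH and 20 to 35 in STH libraries. The ZCCHC24 circle novel_circ_0016557 (chromosome 25, 34227788 to 34229826) had 17 to 36 reads in OR-STH and 13 to 34 in STH libraries. For novel_circ_0014990 of LOC101123244 (chromosome 20, 49861577 to 49883448) there were 46, 35, 24, 28 and 20 reads in OR-STH and 0, 62, 0, 53 and 69 in STH replicates 1 to 5. It was listed in all OR-STH libraries, was missing from STH replicates 1 and 3, and was higher in the other STH libraries than in any OR-STH library. Its log2 fold change was 0.88 ± 1.23 (SE), against a lower mean in OR-STH of 29.0 ± 13.2 normalized reads than the 39.3 ± 36.8 in STH libraries (SD, n = 5 each), and 0.12 without STH replicate 3.

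**Figure D2:**
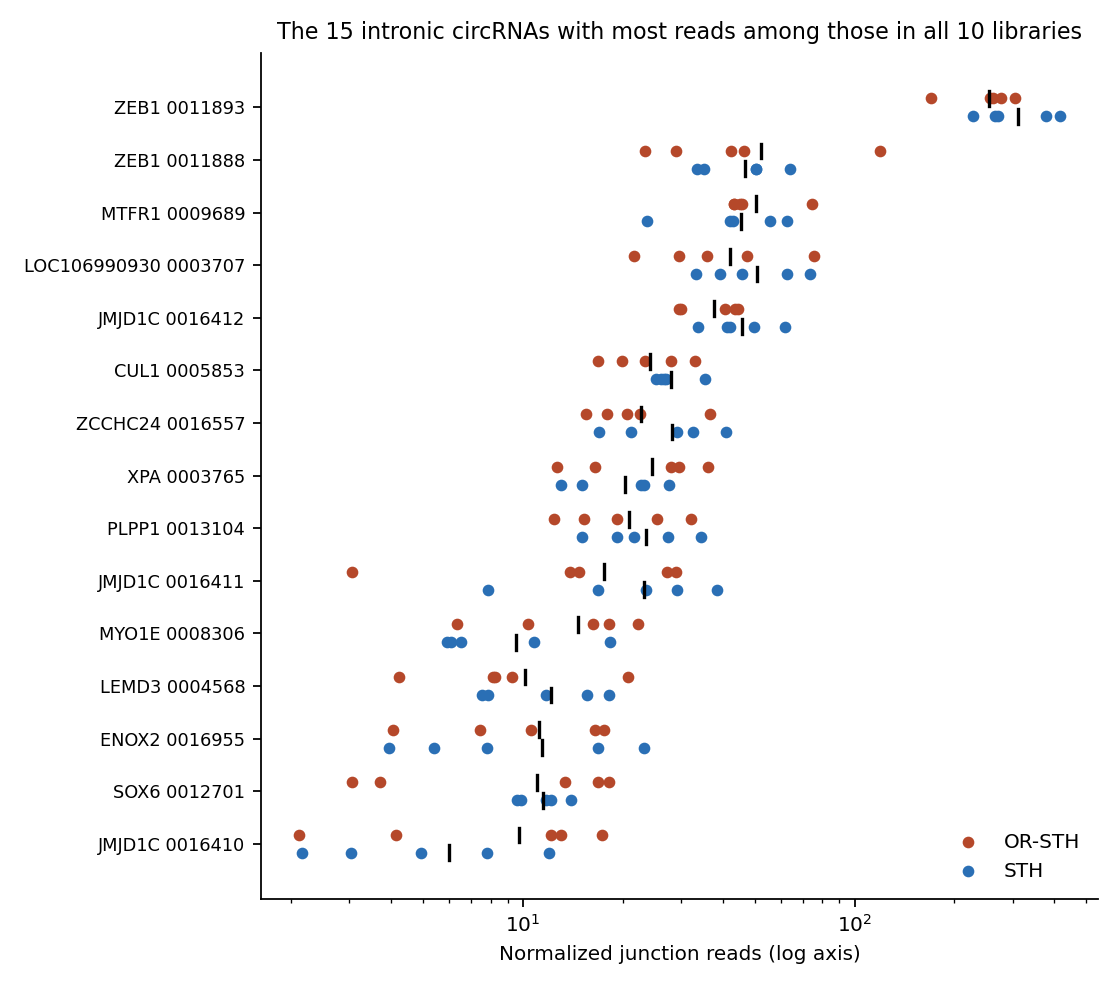
Normalized junction reads (x axis, log scale) of the 15 intronic circRNAs with the most reads among the 22 listed in all 10 libraries (y axis, host gene and the digits of the circRNA name). Each point is a library, red for OR-STH above blue for STH, and black ticks are group means (n = 5 each). The points of the groups overlap for each of the 15, and the ZEB1 circle novel_circ_0011893 stands above the rest with group means of 254 and 312.

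The circle of GHR, the growth hormone receptor gene, was abundant in 4 libraries and unlisted in the rest. novel_circ_0013158 (chromosome 16, 32331807 to 32332685, minus strand) is a single block of 879 bases and the longest of the 36 circles that fill their span. It had 110 reads in OR-STH replicate 3 and no entry in the other OR-STH libraries, and 100, 71 and 68 reads in STH replicates 1, 4 and 5 and no entry in STH replicates 2 and 3. No other circRNA of the 8721 was listed in exactly these 4 libraries. Its normalized reads averaged 23.2 ± 51.9 in OR-STH and 53.7 ± 55.0 in STH libraries (SD, n = 5 each), a difference within the spread between libraries (two-sided exact permutation p = 0.405). The OR-STH mean rests on replicate 3 alone. A second circle, novel_circ_0013159, named after its values were seen, has the same lower coordinate and a higher coordinate 4 bases further. It had 97 reads in OR-STH replicate 3 and 65 in STH replicate 4. No exonic circRNA of GHR was listed.

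Intronic circRNAs took a like share of each group's junction reads. The share was 3.28%, 3.98%, 3.75%, 3.63% and 3.74% in OR-STH replicates 1 to 5 and 3.03%, 3.99%, 2.43%, 4.09% and 4.07% in STH replicates 1 to 5. The groups overlapped, and STH replicate 3 was lowest. The widest exact Clopper-Pearson 95% interval of a library's share, that of STH replicate 2, ran from 3.79% to 4.20%, and it covers counting error only. Means were 3.68% ± 0.256 in OR-STH and 3.52% ± 0.753 in STH libraries (SD, n = 5 each), a difference of 0.153 percentage points that is smaller than either SD. Without the most abundant circRNA of the table, which is exonic and not listed in 4 libraries, the difference was -0.126 percentage points, and without STH replicate 3 it was -0.119. In bulk RNA, fewer cells of a type and less RNA per cell cannot be told apart.

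The number of intronic circRNAs listed was 142, 169, 136, 163 and 172 in OR-STH replicates 1 to 5 and 108, 148, 137, 171 and 166 in STH replicates 1 to 5. Means were 156.4 ± 16.3 in OR-STH and 146.0 ± 25.3 in STH libraries (SD, n = 5 each), so the difference of 10.4 was within the spread. It was 0.90 without STH replicate 1, the library with the fewest circRNAs listed. Per 10000 junction reads of the library the difference was -0.849. Library totals ran from 39045 to 67061 junction reads in OR-STH and from 35731 to 49887 in STH libraries.

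**Figure D3:**
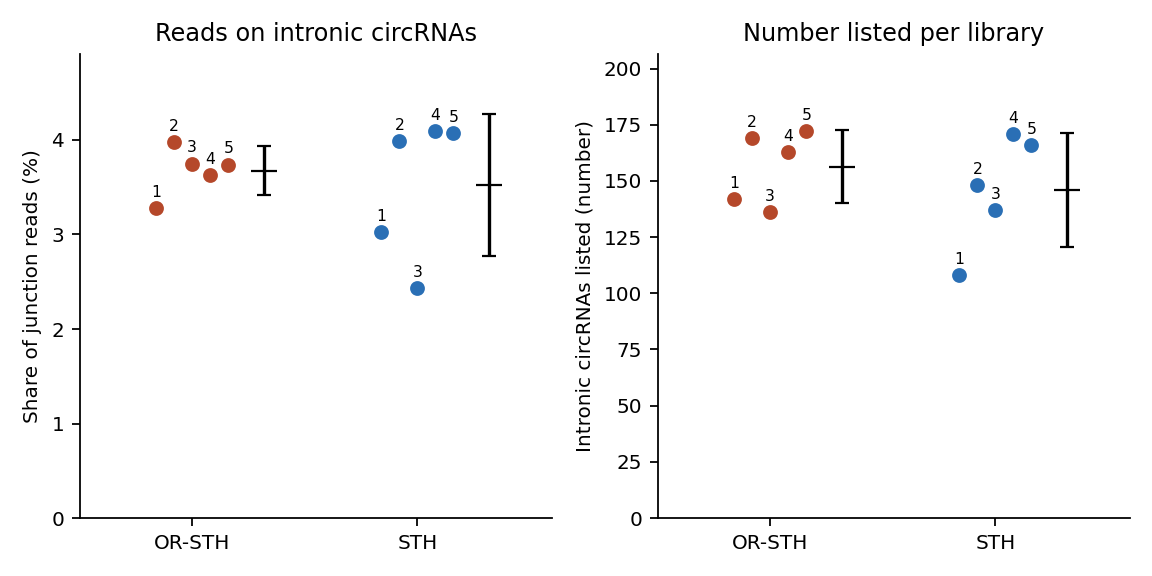
Left, share of junction reads on intronic circRNAs in percent (y axis). Right, number of intronic circRNAs listed (y axis). Each point is a library with its replicate number, OR-STH in red and STH in blue, and the black marks are means with SD (n = 5 each). The groups overlap in both, at 3.28% to 3.98% for OR-STH against 2.43% to 4.09% for STH in the share.

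Listing was sparse. Of the 547 intronic circRNAs, 256 (46.8%) were listed in a single library, 95 in 2, 174 in 3 to 9 and 22 (4.02%) in all 10. Among exonic circRNAs, 36.5% were listed in a single library and 9.75% in all 10. Over all 8721 circRNAs the shares were 37.5% and 9.24%. These shares are a description only, since circRNAs share libraries and depth. The 22 held 43.9% of the intronic reads. There were 164 intronic circRNAs listed in OR-STH libraries only, 136 of them in 1 library, and 146 in STH libraries only, 120 of them in 1 library. Among the 7926 exonic circRNAs, 1816 were listed in OR-STH libraries only and 1753 in STH libraries only. Over all 8721 circRNAs there were 2042 (23.4%) in OR-STH libraries only and 1972 (22.6%) in STH libraries only. Both shares were larger among the 547 intronic circRNAs, which is likewise a description only.

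Intronic circRNAs had fewer reads per listed circle than exonic ones. The mean was 8.86 to 14.6 junction reads per listed intronic circRNA and 10.7 to 19.2 per listed exonic circRNA over the libraries, lower for intronic in 10 of 10. The mean difference was -3.63 reads ± 1.61 (SD, n = 10 libraries), with a two-sided exact sign-flip permutation p of 0.00195, the smallest that 10 libraries can give, and the same value after Benjamini-Hochberg adjustment over the 2 class comparisons. Against exonic circRNAs of a single block the difference turned to 2.81 reads, so it is not a difference from every kind of exonic circle. With medians it was -0.70 reads, lower in 6 of 10 libraries and equal in the other 4 (exact p = 0.0312). The 4 were STH replicates 1, 2, 4 and 5, so with medians the difference was seen in all OR-STH libraries but only STH replicate 3. Without the most abundant circRNA of the table, which is exonic, the difference in means was -2.64 reads. Leaving out ZEB1 novel_circ_0011893, the intronic circRNA with the most reads, could only lower the intronic mean and gave -5.45 reads.

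Non-junction reads were also fewer relative to junction reads. No source used here defines them, and they are read here as reads at the circle without its junction. Overlapping circles can have like counts, as with 108, 120 and 106 for 3 JMJD1C circles in OR-STH replicate 1. Whether a read counts for more than 1 circle is not known. The 7926 exonic circRNAs lay in 3309 hosts and the 547 intronic ones in 424, and the part of overlap in the class difference was not tested. Summed over the class there were 19.6, 11.8, 10.1, 13.2 and 6.56 non-junction reads per junction read in OR-STH replicates 1 to 5 and 11.6, 17.4, 14.1, 25.2 and 9.23 in STH replicates for intronic circRNAs. In STH replicate 4, 22812 of the 42818 intronic non-junction reads belonged to TTN novel_circ_0002292, and without it the ratio was 11.8. Exonic circRNAs had 26.0 to 51.2 in OR-STH and 40.4 to 66.3 in STH libraries. The ratio was lower for intronic circRNAs in 10 of 10 libraries. The mean log2 difference was -1.87 ± 0.362 (SD, n = 10), with a two-sided exact sign-flip permutation p of 0.00195, adjusted 0.00195. It was -1.98 without the TTN circle, a removal from the intronic class alone that could only lower the intronic ratio. The medians over circRNAs gave -0.956. In OR-STH replicate 5, the library with the most junction reads, the ratio was lowest in both classes.

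**Figure D4:**
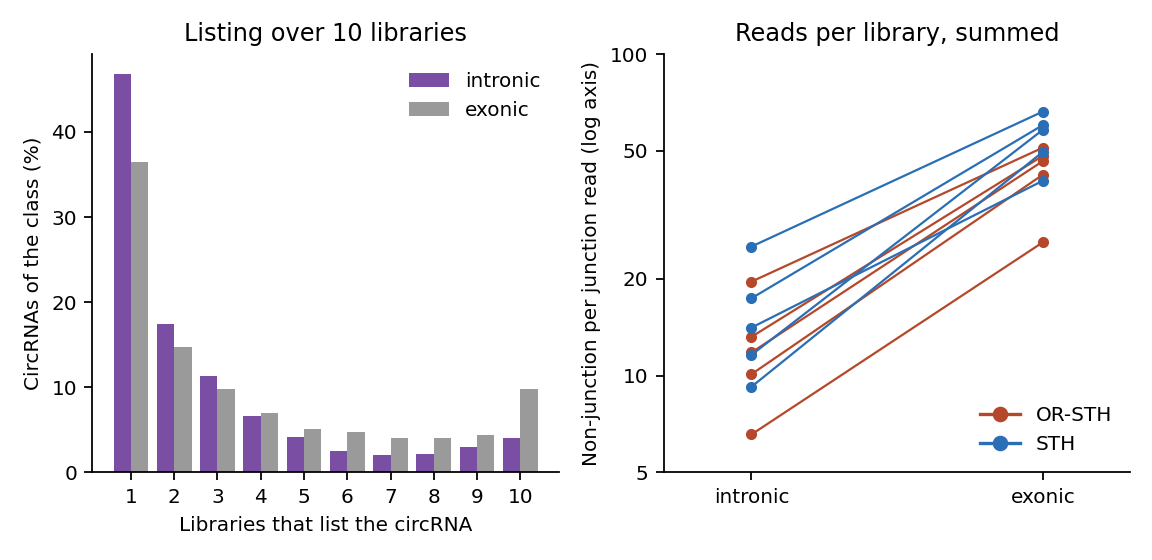
Left, percent of the circRNAs of each class (y axis) by the number of libraries that list them (x axis), purple for intronic and grey for exonic. Right, non-junction reads per junction read of each library (y axis, log scale), summed over intronic or exonic circRNAs (x axis), with a line per library in red for OR-STH and blue for STH. All 10 lines go up towards the exonic class.

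Single circles varied widely in this ratio. In 47 intronic circRNAs (8.59%) non-junction reads were fewer than junction reads. This held for 146 exonic circRNAs (1.84%) and for 240 of the 8721 of any class (2.75%). The rest of the 240 were intergenic, so the trait is not particular to the intronic class. ZEB1 novel_circ_0011893 had 0.346 non-junction reads per junction read over all libraries, with 0.233 to 0.493 in single libraries. The GHR circle novel_circ_0013158 had 0.622 and MTFR1 novel_circ_0009689 had 0.861. The ratio was 0.255 for novel_circ_0014690 of CMTM8, a gene for a membrane protein, and 0.382 for novel_circ_0005410 of LIMS1, which encodes an adaptor of focal adhesions. The circle novel_circ_0001262 of MORC3, which encodes a nuclear ATPase, had 45.4 non-junction reads per junction read. It starts at 269239714, and 2 of its 3 blocks are labelled exon elsewhere. The exonic novel_circ_0001264 of MORC3 starts at 269239726, has the same end and had 2793 junction reads. The circle novel_circ_0002292 of TTN, the gene of the sarcomeric spring titin, had 22812 non-junction reads for 5 junction reads, all in STH replicate 4.

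No intronic circRNA differed between OR-STH and STH libraries past the threshold. Of the 547, 23 passed the filter of the limma voom fit, which needs 10 scaled reads in at least 5 libraries. All 23 had 2 or more blocks that reached both ends, and they held 51.0% of the intronic reads. The smallest adjusted p among the 23 was 0.781 in limma, and 0 of 738 circRNAs of any class passed (0%). At an unadjusted p under 0.05 there was 1 of 23 intronic circRNAs, against 42 of 738 of any class (5.69%), and its estimate was lower in OR-STH, as were 4.47% of the 738. Estimates were positive in 10 and negative in 13 of the 23, against 351 positive of 738 (47.6%), with a median log2 fold change of -0.25 against -0.04 over all 738. With library totals alone both medians moved up, to -0.09 and 0.14. With looser filters 98 intronic circRNAs were fitted at 2 reads in 5 libraries, and all 547 with no filter beyond 1 read. None of the 98 passed, against 0.149% of 2690 circRNAs of any class, and 5 had an unadjusted p under 0.05, against 7.96%. None of the 547 passed, against 0.161% of 8721, and 19 had an unadjusted p under 0.05, against 6.13%. Normalized reads of the groups overlapped in each of the 23, while in 10 of 738 (1.36%) they did not.

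The size of the estimates went with missing entries. The 13 circRNAs listed in all 10 libraries had log2 fold changes between -0.66 and 0.75, with a median standard error of 0.34. The 10 with no entry in 1 or more libraries had log2 fold changes between -3.33 and 1.95, with a median standard error of 1.13, and 6 of them lay beyond 1 in size. Over all 738 circRNAs, 27 of 605 listed in all libraries (4.46%) and 65 of 133 others (48.9%) lay beyond 1. A library without an entry was entered as 0 reads, and the smallest listed count is 2 reads.

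**Figure D5:**
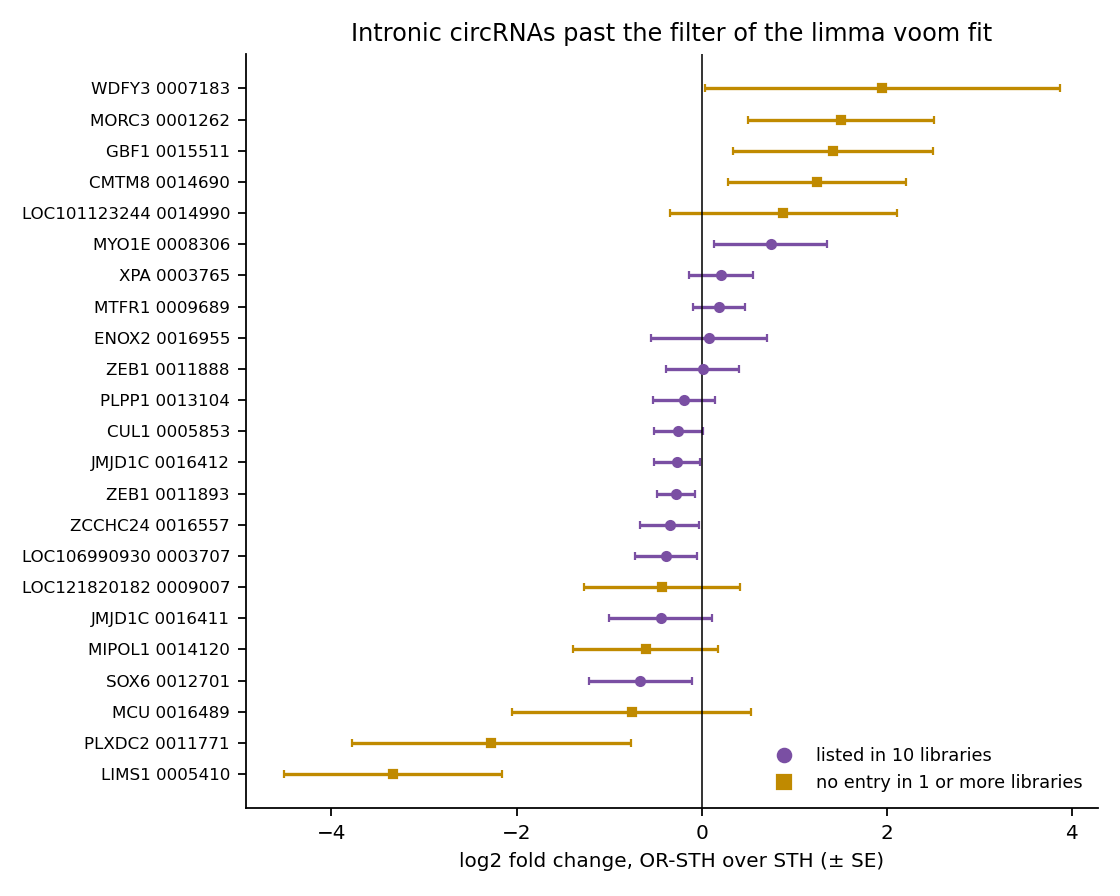
Log2 fold change of OR-STH over STH with its standard error (x axis) for the 23 intronic circRNAs in the limma voom fit (y axis, host gene and the digits of the circRNA name). Purple circles are listed in all 10 libraries and yellow squares lack an entry in 1 or more. The purple estimates lie between -0.66 and 0.75, and the extremes are squares, at -3.33 for LIMS1 and 1.95 for WDFY3.

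Among circles with lower estimates in OR-STH, that of LIMS1 had the smallest p. novel_circ_0005410 (chromosome 3, 61959994 to 61968189, plus strand, 3 blocks) had 3, 21, 16, 30 and 0 junction reads in OR-STH and 14, 13, 8, 34 and 47 in STH replicates 1 to 5. OR-STH replicates 1 and 5 were low, and the other 3 lay among the STH values. Its log2 fold change was -3.33 ± 1.18 (SE), with an adjusted p of 0.781 in limma, and -0.59 without OR-STH replicate 5. PLXDC2, a gene for a membrane receptor, gave novel_circ_0011771 (chromosome 13, 20862595 to 20870417) with 28, 18, 16, 5 and 0 reads in OR-STH and 26, 5, 0, 26 and 21 in STH replicates. Its estimate of -2.27 ± 1.51, with an adjusted p of 0.836 in limma, turned to 0.51 without OR-STH replicate 5. The next were ZEB1 novel_circ_0011893 at -0.28 ± 0.21, SOX6 novel_circ_0012701 at -0.66 ± 0.55 and LOC106990930 novel_circ_0003707 at -0.38 ± 0.34, each with an adjusted p of 0.847 in limma. The SOX6 estimate was 0.02 and that of LOC106990930 -0.12 without OR-STH replicate 5, and the ZEB1 estimate ran from -0.36 to -0.13 when each library was left out.

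SOX6 encodes a transcription factor that represses slow-fiber genes in mouse muscle. Its circle novel_circ_0012701 (chromosome 15, 35730682 to 35764428) had the longest spliced length of the class, 919 bases in 7 blocks. It had 13, 3, 16, 21 and 6 reads in OR-STH and 9, 8, 13, 10 and 12 in STH replicates 1 to 5. The OR-STH libraries lay on both sides of the STH ones. The shortest spliced length, 48 bases, was that of novel_circ_0009500 of the potassium channel gene KCNQ5, with 5 reads in STH replicate 5 and a block that reached only 1 end.

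Among circles with higher estimates in OR-STH, those with the smallest p came from MORC3, GBF1, CMTM8, MYO1E and WDFY3. MORC3 novel_circ_0001262 (chromosome 1, 269239714 to 269243629) had 17, 16, 7, 12 and 27 reads in OR-STH and 12, 12, 15, 0 and 4 in STH replicates 1 to 5. Its log2 fold change was 1.51 ± 1.00 with an adjusted p of 0.836 in limma, and 0.47 without STH replicate 4. It lies over nearly the same stretch as the exonic novel_circ_0001264, which had 2793 reads. GBF1, which encodes an exchange factor for ARF GTPases at the Golgi, gave novel_circ_0015511 (chromosome 22, 22670631 to 22673758) with 13, 15, 20, 17 and 13 reads in OR-STH and 3, 15, 12, 8 and 0 in STH replicates. Its estimate was 1.42 ± 1.08, and 0.42 without STH replicate 5. The CMTM8 circle (chromosome 19, 6744348 to 6746721) had 13, 27, 32, 8 and 34 reads in OR-STH and 19, 28, 7, 24 and 0 in STH replicates. Its estimate of 1.25 ± 0.96 turned to -0.13 without STH replicate 5.

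MYO1E, which encodes an unconventional myosin, gave novel_circ_0008306 (chromosome 7, 49123787 to 49213152), which was listed in all libraries. It had 10, 16, 6, 21 and 36 reads in OR-STH and 5, 9, 17, 6 and 6 in STH replicates. Its log2 fold change was 0.75 ± 0.61, between 0.59 and 1.05 when any 1 library was left out. WDFY3, which encodes an autophagy adaptor, gave novel_circ_0007183 (chromosome 6, 100439704 to 100440579) with 23, 39, 15, 20 and 5 reads in OR-STH and 14, 0, 11, 8 and 0 in STH replicates. Its estimate of 1.95 ± 1.92 was 1.15 without STH replicate 5. The adjusted p of the GBF1, CMTM8, MYO1E and WDFY3 circles was 0.847 in limma, and their groups overlapped.

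The remaining named circles listed in all libraries had small estimates. XPA, a gene of nucleotide excision repair, had novel_circ_0003765 at 0.21 ± 0.35, and PLPP1, which encodes a lipid phosphatase, had novel_circ_0013104 at -0.19 ± 0.33. The XPA estimate ran from 0.07 to 0.42 and that of PLPP1 from -0.33 to -0.03 when each library was left out. MTFR1 novel_circ_0009689 was at 0.19 ± 0.28, CUL1 novel_circ_0005853 at -0.25 ± 0.27 and JMJD1C novel_circ_0016412 at -0.26 ± 0.25, and the MTFR1 estimate was -0.02 without STH replicate 4. ENOX2 novel_circ_0016955, on the X chromosome, was at 0.08 ± 0.63 and ran from -0.32 without STH replicate 4 to 0.37 without OR-STH replicate 2. ZEB1 novel_circ_0011888 was at 0.01 ± 0.39, and at -0.40 without OR-STH replicate 5. JMJD1C novel_circ_0016411 was at -0.44 ± 0.56, and at 0.03 without OR-STH replicate 2. ZCCHC24 novel_circ_0016557 was at -0.34 ± 0.32. The LEMD3 circle novel_circ_0004568, of a gene for an inner nuclear membrane protein, was below the filter. It had 8, 8, 4, 24 and 15 reads in OR-STH and 9, 13, 7, 8 and 18 in STH replicates (two-sided exact permutation p = 0.579).

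Of the 547 intronic circRNAs, 1 was listed in at least 4 libraries of a group and in none of the other, against 39 of 8721 of any class (0.447%). It was novel_circ_0014025 of LINGO1, which encodes a membrane protein known from the nervous system (chromosome 18, 30744546 to 30745372, minus strand). It had 3, 3, 0, 8 and 13 reads in OR-STH replicates 1 to 5 and no entry in any STH library. It is named for this listing, which is a description with no test. LINGO1 had 3 intronic circRNAs and no exonic one.

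Hosts were also counted on fixed lists of marker genes of muscle and of other cells. Over all hosts, 298 of the 3309 with an exonic circRNA also had an intronic one. Of 25 genes abundant in adult muscle fibers, 5 had an intronic circRNA, among them TTN, NEB, MYBPC1 and DMD, and 16 an exonic one, with 91 intronic reads in all. NEB, the nebulin gene, had novel_circ_0002833 with 5, 7, 6, 20 and 0 reads in OR-STH and 2, 0, 4, 0 and 0 in STH replicates 1 to 5 (two-sided exact permutation p = 0.0635, and 0.00794 without OR-STH replicate 5, the only OR-STH library with no entry). Without that library the groups no longer overlapped, and the exact permutation p was then the smallest that the test can give. Leaving out another library gave exact p-values of 0.0635 to 0.119, unadjusted over the 13 named circRNAs tested in this way. MYBPC1 had 2 reads in STH replicate 2. DMD, the dystrophin gene, had 19 reads in 3 libraries, with 4 and 3 in OR-STH replicates 2 and 4 and 12 in STH replicate 3. Among the 15 satellite cell and myoblast genes none had an intronic circRNA, and 4 had an exonic one. None was listed for the 9 smooth muscle and pericyte, 13 fibroblast and matrix, 7 adipocyte, 8 immune or 6 Schwann cell genes. Of 10 endothelial genes, TEK, the angiopoietin receptor gene, had 1 with 9 reads in OR-STH replicates 4 and 5.

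Estrogen receptors and targets had no intronic circRNA in 8 genes, and 4 of these genes had an exonic one. Of 11 MAPK genes, 2 had one. MAP2K4 had 3, 3 and 4 reads in OR-STH replicates 3, 4 and 5 and 9 in STH replicate 2, and MAPK14 had 3 and 5 reads in STH replicates 4 and 5. The human genes ANKRD52, MCM5 and SIRT7, known for circular intron lariats, had neither an intronic nor an exonic circRNA here. These counts were not set against gene length, so they do not measure the cell content of the samples.

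In the authors' deposited table, 3 of the 547 intronic circRNAs have a p under 0.05 (0.548%), against 118 of 8721 of any class (1.35%), and none an adjusted p under 0.05. Of the 3, 2 are higher in OR-STH in that authors' deposited table (0.539% of all 8721 are), those of LINGO1 and KIF21A, and 1 is lower (0.814% of all are), that of KCNN3. KIF21A and KCNN3 are named after their values were seen. The authors' deposited table gives mean normalized signals of 4.19 in OR-STH and 0 in STH for LINGO1, of 5.57 in OR-STH and 0.412 in STH for KIF21A, and of 0 in OR-STH and 3.57 in STH for KCNN3. Its adjusted p is 0.966 for each, and that of LINGO1 is no independent support for the listing it was named for.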

How the data were processed

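A directional kit was used for the libraries, per the labels' protocols. The submitters' processing notes name HISAT2, while caller, genome build and annotation were not given in the sources used here. No sequences are printed. The authors deposited whole-number junction and non-junction read counts packed in lists with sample names and lengths (unit other). The lists also hold 10 other sample names, outside the series, which were left out. A further deposited table holds the authors' group means of normalized read signal, a log2 fold change and p-values. Coordinates are the files', with starts counted from 1, and chromosome numbers were assigned by host gene in the table of ARS-UI_Ramb_v3.0 (537 of 547 intronic circRNAs matched by gene ID).

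Counts were unpacked and libraries without an entry entered as 0. The fit used all classes: limma voom (limma 3.58.1, R 4.3.3, statmod 1.5.0), group as the only term, robust variances, and library sizes scaled by trimmed mean of M values (30% and 5% trimmed) over the 738 circRNAs with 10 scaled reads in at least 5 libraries and a total of at least 15, which hold 68.0% of junction reads. P-values were adjusted by Benjamini-Hochberg over the 738, threshold 0.05. Normalized junction reads are reads divided by scaled library size over its geometric mean. Named circRNAs below the filter, 13 besides the 1 named for its listing in a single group, were tested by exact permutation over 252 relabellings (smallest p 0.00794), and classes by exact sign flips over libraries. The functions were tested on simulated data.

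The text names the 5 smallest p in each direction, the 10 with most reads, up to 15 listed in all libraries, any listed in 4 or more libraries of only 1 group, the longest and shortest, those with most reads among circRNAs of 2 or more blocks, the 5 hosts with most intronic circRNAs, and hosts on marker lists, of which 1 is not reported here. Members, lists and rule were chosen with earlier results of these data known. Alternatives covered scaling, filter, variance model, replicate block, class definitions and leaving out each library.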

Additional observations from a re-analysis of the deposited data

Results flagged for a closer look

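Of 56 groups of 5 values examined for a library far from the others, 6 stood out. Chance flags about 1 in 20 groups of normally spread values, a rate that does not hold for circRNAs with many missing entries. The mean number of junction reads per listed intronic circRNA was 14.6 in OR-STH replicate 5, against 9.57 to 10.8 in the other OR-STH libraries, and this library also had the most junction reads. ZEB1 novel_circ_0011888 had 119 normalized junction reads in OR-STH replicate 5, against 23.4 to 46.5 in the others of its group. MTFR1 novel_circ_0009689 had 74.4 in OR-STH replicate 1, against 43.3 to 45.8. The GHR circRNA novel_circ_0013158 had 116 in OR-STH replicate 3 and no entry in the others of its group. MCU novel_circ_0016489 had 53.5 in STH replicate 5, against 19.5 to 26.6 in the other STH libraries, and CUL1 novel_circ_0005853 had 35.3 there, against 25.3 to 26.9.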

How the results depend on the processing

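The count of intronic circRNAs past the threshold was 0 in limma under the 18 alternatives to the main fit, with 0 to 19 at an unadjusted p under 0.05. The highest of these counts came with no filter beyond 1 read, where all 547 were fitted. With the replicate number as a block, 0 of 23 intronic circRNAs passed, and 3 of 738 in all. Same-numbered libraries had correlations of deviations between -0.11 and 0.18, and OR-STH libraries correlated best with their own number in replicates 2 and 4 only, so the numbers were not taken as pairs. Under the block, novel_circ_0014990 of LOC101123244 moved to -1.30 from a main estimate of 0.88. Of the 21 named circRNAs in the fit, 9 changed sign under some alternative. The difference in junction reads per listed circRNA between intronic and exonic circRNAs turned to 2.81 against single-block exonic circRNAs, and the cause was not tested. It ran from -3.91 to -3.28 when each library was left out, and the log2 difference in non-junction reads per junction read from -1.93 to -1.81. Over the other settings that log2 difference ran from -3.71 to -0.956. Of the 13 named circRNAs tested below the filter, NEB novel_circ_0002833 had an exact p under 0.05 without OR-STH replicate 5 only. With LINGO1 novel_circ_0014025, whose p restates the listing it was named for, the count was 1 to 2 when each library was left out. The alternatives without the leading ZEB1 circRNA, without the TTN circRNA and with complete blocks only were chosen after seeing the data. Of the 547 intronic circRNAs, 256 are listed in 1 library, and the part of depth in this was not tested.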

Other observations

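Several hosts produced families of intronic circles around a common block. LOC121820182, which is not in the gene table, had 6 intronic circRNAs on chromosome 8 with 344 junction reads and no exonic one. A block of 78 bases (26234170 to 26234247) was in 6 of the 6. Its host total was 46, 37, 22, 11 and 64 reads in OR-STH and 39, 34, 32, 31 and 28 in STH replicates 1 to 5. ENOX1, a gene for a cell-surface oxidase, had 5 on chromosome 10, of which 4, on the minus strand, held the same block of 151 bases. SOX6 had 6, and a block of 82 bases was in 4 of them. The 4 intronic circRNAs of MCU shared a block of 112 bases, and the 3 of LIMS1 had 3 blocks in common.

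Among the hosts without a listed exonic circRNA, high totals of intronic reads were those of GHR with 511, LOC121820182 with 344, LOC101123244 with 341 and CMTM8 with 261. ZCCHC24 came next, before AQP7, which encodes a glycerol channel and had 110. These hosts were picked for this count after the values were seen.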
